A study of Mus musculus with 288 samples.

Results

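The genes described here encode the factors that start and carry out protein synthesis in the cytosol. They were chosen by name from a table of read counts of single mouse embryonic stem cells (mESCs). Names that begin with Eif and a digit from 1 to 6, or with Eef1 or Eef2, were taken, pseudogene names and the sex-linked pair of eIF2 gamma genes were left out, and 66 of the 54232 rows remained. The cells were labelled as the line E14 of strain 129/Ola, which was derived from a mouse blastocyst. They had been kept in 2i, a medium with the inhibitors CHIR99021 and PD0325901 and with LIF, and were then moved to serum with LIF. Cells were dissociated with Accutase and sorted into plates at 0 h (D0, still in 2i), 24 h (D1) and 48 h (D2) after this 2i release, with 96 wells for each time. By their labels all 3 groups share the line, LIF and the treatment of the isolated cell with a GpC methyltransferase that scNMT-seq uses before the RNA and DNA of a cell are separated. Polyadenylated RNA was sequenced, and only these reads were used.

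Translation begins when eIF4E binds the cap of an mRNA and, with the scaffold eIF4G and the helicase eIF4A, forms the complex that brings in the small ribosomal subunit. That subunit carries eIF1, eIF1A, eIF3, eIF5 and the ternary complex of eIF2, GTP and the initiator tRNA, and scans to the start codon, after which eIF5B joins the large subunit. The 4E-binding proteins hold eIF4E away from eIF4G until mTORC1 phosphorylates them, and kinases that phosphorylate the alpha subunit of eIF2 block its exchange factor eIF2B. In elongation eEF1A delivers aminoacyl-tRNAs, the eEF1B subunits recharge it with GTP, eEF2 moves the ribosome along, and eIF5A relieves stalls.

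Of the 96 wells per label, 90 of D0, 50 of D1 and 93 of D2 had more than 200000 reads, more than 2000 detected genes and a mitochondrial fraction under 0.15. Each label was 1 culture on 1 plate, going by the sources, so time, plate and library cannot be told apart, no test was possible, and SDs describe the spread between cells. Total reads of the passing cells lay between 202157 and 43336922. The median cell had 9002 genes with a read in D0, 10676 in D1 and 4744 in D2. After each cell was thinned to 200000 reads, the medians were 7793.5, 8046.5 and 3944, so the D2 number was the smallest at equal depth too. Of 10 listed pluripotency markers, 10 of 10 were detected in 50% or more of D0 and D1 cells and 8 of 10 in D2. Their levels did not follow the order of the times. By the limit used below, 1 was higher and 5 lower in D1 over D0, beside 13.2% and 25% of all genes. In D2 over D1 5 were higher and 2 lower, beside 15.0% and 19.4%. Zfp42 had a mean of 896 CPM in D0, 362 in D1 and 1281 in D2, and Nanog 489, 67.2 and 268. The summed level of 8 fibroblast markers was 0 CPM in the median cell of every label and 288 CPM at most. Trophectoderm markers had a median of 25.1 CPM in D0, 1.33 in D1 and 0 in D2, and single genes went both ways. Tfap2c had a read in 84.4% of D0, 20% of D1 and 23.7% of D2 cells, while Gata3 (10%, 32% and 7.53%) and Hand1 (0%, 16% and 1.08%) were most often read in D1. The medians of ectoderm markers were 0, 13.1 and 0 CPM, with Pax6 in 0%, 44% and 3.23% and Nes in 32.2%, 56% and 4.3% of cells. Their part in the results was not tested. The D1 plate stood apart in Hprt, which the E14 derivative E14Tg2a lacks in part and which had a read in 10% of D0, 96% of D1 and 7.53% of D2 cells. Its mean was 3.08 CPM in D0, 207 in D1 and 2.68 in D2. Leaving out the cells that went against their label in Hprt (9 of D0, 2 of D1 and 7 of D2) kept 44 of the 45 ratios past the limit used below. That left 48 D1 cells with an Hprt read beside D0 and D2 cells without one, so it cannot address the difference between the plates. Whether D1 came from another subline cannot be told apart from time and plate.

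Translation factor genes were abundant in every label, and the mean of their summed share of reads was highest in D2. Together the 66 genes had 25727 ± 3313 CPM in D0, 27887 ± 5574 in D1 and 30674 ± 3931 CPM in D2 (CPM, read counts scaled to the total of the cell, mean ± SD between cells, n = 90, 50 and 93). This is 2.57%, 2.79% and 3.07% of the reads. The log2 ratio of these sums was 0.12 for D1 over D0 and 0.25 for D2 over D0. The D1 difference was smaller than the SD between cells, and the ratio was -0.007 when no cell was filtered out. The D2 difference was larger than the SD of D0 and of D2. Neither comparison is a test, since these SDs hold no spread between cultures. Of the 59 members that met the detection limit below, 31 had a ratio above 0 in D2 over D0. Their median was 0.08, so the higher sum was not shared by all members. Of the 66 genes, 59 were detected in 50% or more of the cells of at least 1 label, and these carry the ratios below. For single genes the log2 ratio was taken of mean CPM + 1, and a ratio above 1 or below -1 is called past the limit. The 5 genes that took the most reads held 41.1% of the summed level in D0, 44.3% in D1 and 51.2% in D2. They were Eef1a1, Eef1g, Eif5a, Eef2 and Eif4a1 in D0. Per kilobase of exon, Eef1a1 was first in every label and Eif5a was at rank 3 in D0 and rank 2 in D1 and D2.

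**Figure D1:**
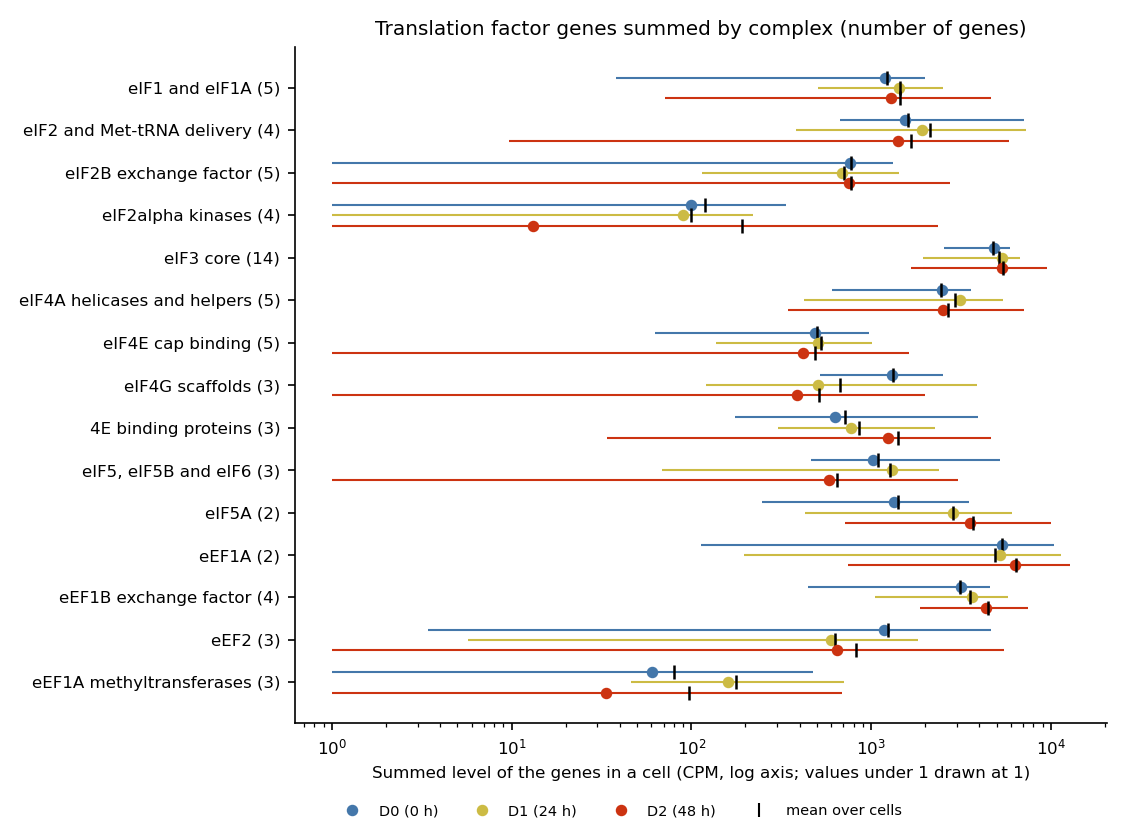
Summed level of the genes of each complex in single cells, in CPM on a log axis, with cells of D0, D1 and D2 in separate colours. Lines span the lowest to the highest cell, filled points are medians and black ticks are means. The eIF4G scaffolds have their highest median in D0, the eIF5A genes their highest in D2, and the lines of D2 reach values drawn at 1 CPM in 7 of the 15 complexes.

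Among the cap-complex genes, the eIF4G scaffolds, which hold that complex together, had lower means after release. Their sum was 1329 ± 384 CPM in D0, 670.2 ± 565 in D1 and 515 ± 464 CPM in D2, and the log2 ratio to D0 was -0.99 in D1 and -1.37 in D2. Eif4g1 (chr16:20668313-20692884, plus strand, GRCm38) encodes the main scaffold. Its level lay between 0 and 899 CPM with a median of 334 in D0, between 0 and 507 CPM with a median of 135 in D1 and between 0 and 1410.1 CPM with a median of 46.5 in D2. The ranges overlapped, and 2 of 50 D1 cells and 9 of 93 D2 cells were above the D0 median. By medians over cells the log2 ratio of Eif4g1 to D0 was -1.30 in D1 and -2.82 in D2. Over all genes the median of such ratios was 0.01 and -3.00, so in D2 the fall by medians was no larger than that of all genes. Eif4g1 means gave a log2 ratio of -1.18 in D1 and -1.46 in D2. Eif4g2, which encodes the eIF4E-independent scaffold DAP5, had 984 ± 361 CPM in D0, 518 ± 568 in D1 and 379 ± 393 CPM in D2, with log2 ratios of -0.92 and -1.37. Less the median of all genes of like exon length, the ratios were -0.55 and -0.93 for Eif4g1 and -0.14 and -0.48 for Eif4g2, and none was past the limit. One D1 cell held 3874 CPM of Eif4g2 against a D1 median of 366 CPM. Eif4g3, the remaining paralog, had a read in 40% of D0 cells (exact 95% interval 29.8 to 50.9%), 30% of D1 (17.9 to 44.6%) and 11.8% of D2 (6.05 to 20.2%), and was not compared further.

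The partners of eIF4G differed in both directions. Eif4a1, the main helicase of the cap complex, had 1065 ± 287 CPM in D0, 1744 ± 798 in D1 and 1594 ± 517 CPM in D2. Its cells lay between 216 and 1823 CPM with a median of 1089 in D0, between 155 and 3829.9 CPM with a median of 1844 in D1 and between 225 and 3640.5 CPM with a median of 1606 in D2, and 27 of 50 D1 and 27 of 93 D2 cells were above the highest D0 cell. For Eif4a1 the log2 ratios were 0.71 and 0.58, inside the limit of 1. Eif4a2, its paralog, differed by -0.69 and -0.38, and Eif4a3, the helicase of the exon junction complex, by 0.74 and 0.77. Eif4b, an RNA-binding helper of the helicase, was lower in both, between 0 and 921 CPM with a median of 393 in D0, between 18.1 and 502 CPM with a median of 192 in D1 and between 0 and 791 CPM with a median of 67.9 in D2. Above the D0 median of Eif4b were 3 of 50 D1 and 11 of 93 D2 cells, and the log2 ratios were -1.02 and -1.48. By medians over cells they were -1.03 and -2.52, beside 0.01 and -3.00 over all genes. Eif4h, a related helper, had 173 ± 84.9 CPM in D0, 252 ± 142 in D1 and 101 ± 130.1 CPM in D2. It was thus highest in D1, with a log2 ratio of -1.32 for D2 over D1.

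Cap-binding genes were inside the limit by means. The cap-binding protein gene Eif4e had 272 ± 159 CPM in D0, 296 ± 172 in D1 and 224 ± 268 CPM in D2, and its log2 ratios to D0 were 0.12 and -0.28. The median cell had 268 CPM of Eif4e in D0, 273 in D1 and 96.9 in D2, and 97.8% of D0 and 81.7% of D2 cells had a read. Eif4e2, which encodes the repressive homologue 4EHP, had ratios of 0.09 and 0.38. Eif4enif1, the gene of the eIF4E transporter, had -0.43 and -0.82, and a read in 83.3% of D0 and 20.4% of D2 cells. No read of Eif4e1b, an oocyte paralog, was seen in D1 or D2, and 2 of 90 D0 cells had one. No read of Eif4e3 was seen in D0 or D2, and 3 of 50 D1 cells had one.

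Of the 4E-binding proteins, Eif4ebp1 was the abundant one and was highest in D2. Its level lay between 99.7 and 3951 CPM with a median of 571 in D0, between 262 and 2257 CPM with a median of 733 in D1 and between 33.8 and 4625 CPM with a median of 1134 in D2. The 3 ranges overlapped, and 85 of 93 D2 cells were above the D0 median. For Eif4ebp1 the log2 ratio was 0.34 in D1 and 1.04 in D2, and the latter was 0.99 without the cells that went against their label in Hprt and 0.99 by medians. Eif4ebp2 had 72.8 ± 51.4 CPM in D0, 40.6 ± 34 in D1 and 82 ± 218 CPM in D2, and its mean in D2 rested on few cells, since the median there was 1.03 CPM. Its ratio of D2 over D1 was 1.00 after rounding and just inside the limit. Eif4ebp3 had a read in 1 of 90, 2 of 50 and 0 of 93 cells, and the last allows a share of up to 3.23% (3 of 93, the limit used here for a count of 0).

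**Figure D2:**
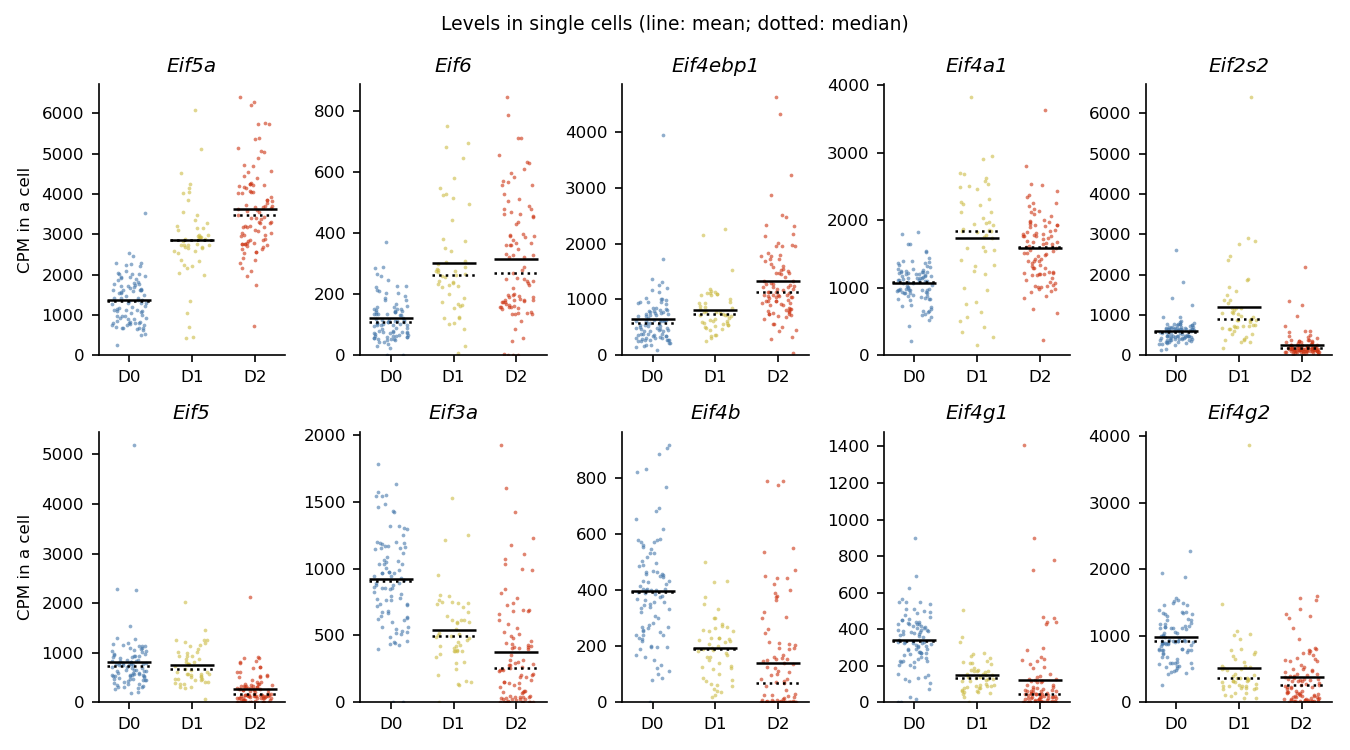
Levels of 10 translation factor genes in single cells of D0, D1 and D2, in CPM on linear axes that differ between panels, with the mean as a line and the median dotted. Eif5a, Eif6 and Eif4ebp1 have higher means in D2 than in D0, and Eif3a, Eif4b, Eif4g1 and Eif4g2 lower ones, with overlapping cells in each panel. Eif2s2 is highest in D1 (1189 CPM) and lowest in D2 (256 CPM).

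Single genes of the ternary complex differed. Eif2s2, which encodes the beta subunit of eIF2, lay between 139 and 2598 CPM with a median of 575 in D0, between 180.0 and 6394 CPM with a median of 892 in D1 and between 9.64 and 2188 CPM with a median of 170.3 in D2. Its D1 cells were mostly above the D0 median (41 of 50) and its D2 cells mostly below (7 of 93 above). By medians over cells its D2 over D0 ratio was -1.75, beside -3.00 over all genes. Eif2s2 had a log2 ratio of 0.98 for D1 over D0, -1.23 for D2 over D0 and -2.21 for D2 over D1. For D1 over D0 it was 0.63 by medians and 0.57 with summed reads. The 4 D1 cells above the highest D0 cell, at 2753 to 6394 CPM of Eif2s2, had 155 to 570 CPM of Eif4a1 and 13261 to 20085 CPM summed over all members, against D1 medians of 1844 and 28850 CPM. They thus stood apart in more than this gene, and their part in the other D1 values was not tested. Eif2s1, the alpha subunit and the target of the kinases, had 682 ± 459 CPM in D0, 646 ± 278 in D1 and 1078 ± 837 CPM in D2 and ratios of -0.08 and 0.66 to D0. Eif2a and Eif2d, which can deliver initiator tRNA without eIF2, had log2 ratios to D0 of -0.18 and -0.07 for Eif2a and -0.18 and 0.15 for Eif2d.

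Among the 5 eIF2B subunits the sum was level, at 775 ± 266 CPM in D0, 707 ± 272 in D1 and 773 ± 565 CPM in D2. Eif2b1, the alpha subunit, had log2 ratios of 0.73 and 1.18 to D0, and the latter was 0.475 by medians. Eif2b5, the catalytic epsilon subunit, had -0.89 and -0.97. The remaining subunits, Eif2b2, Eif2b3 and Eif2b4, lay between -0.59 and 0.62 in these ratios.

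The 4 eIF2 alpha kinase genes summed to 119 ± 77.6 CPM in D0, 99.8 ± 53.4 in D1 and 191 ± 415 CPM in D2, with log2 ratios of 0.69 for D2 over D0 and 0.94 for D2 over D1. The median cell went the other way, with 99.3 CPM in D0, 89.6 in D1 and 13.2 in D2. Of these genes, Eif2ak1 (HRI, known as the heme-regulated kinase) had 51.7 ± 50.9 CPM in D0, 57.4 ± 44.9 in D1 and 148 ± 393 CPM in D2. The mean in D2 was the highest but the median cell there had none, since 39.8% of D2 cells had a read against 81.1% of D0 cells. Eif2ak1 means differed by a log2 ratio, for D2 over D0, of 1.5, and that of medians was -5.29. For D2 over D1 these were 1.35 and -5.64. Eif2ak4 (GCN2, the sensor of uncharged tRNA) had 18 ± 23.8 CPM in D0, 11.8 ± 21.2 in D1 and 6.08 ± 35.2 CPM in D2 and a ratio of -1.43 in D2. One D2 cell had 333 CPM, and without that cell the ratio of Eif2ak4 was -2.43. In plate columns 1 to 6 it was -0.55, inside the limit, and in columns 7 to 12 -2.74. Eif2ak2 (PKR, activated by double-stranded RNA) had ratios of -0.48 and -0.08. Eif2ak3 (PERK, the kinase of the endoplasmic reticulum) had a read in 43.3%, 40% and 4.3% of cells and was under the detection limit.

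Eif1 and Eif1a, whose products guide start codon choice, were within the limit in all 3 comparisons, from -0.63 to 0.54 for Eif1 and from -0.59 to -0.13 for Eif1a. Eif1ad, the gene of an eIF1A-like protein, lay between 0 and 292 CPM with a median of 92.2 in D0, between 25.6 and 1514 CPM with a median of 153 in D1 and between 0 and 3206 CPM with a median of 166 in D2. Its D2 cells were the most spread, with 57 of 93 above the D0 median and 34 above the highest D0 cell. Eif1ad had a log2 ratio for D2 over D0 of 2.26 by means and 0.85 by medians, and for D2 over D1 1.43 and 0.12. Eif1ax, the X-linked copy of eIF1A, had 0.95 and 0.41 to D0, and Eif1b, a paralog of Eif1, 0.09 and 0.08.

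The 14 eIF3 genes, whose products form the largest initiation factor, had an almost level sum. It was 4741 ± 598 CPM in D0, 5124 ± 888 in D1 and 5397 ± 1446 CPM in D2, with log2 ratios of 0.11 and 0.19 to D0. Underneath, single subunits differed in both directions. Past the limit of 1 were 3 higher and 2 lower of 14 in D1 over D0, beside 13.2% higher and 25% lower over all genes, and 3 higher and 3 lower in D2 over D0, beside 9.74% and 28.1%. The lower counts were thus under the background share. Eif3b, one of the scaffold subunits, lay between 0 and 936 CPM with a median of 268 in D0, between 5.71 and 525 CPM with a median of 88.1 in D1 and between 0 and 532 CPM with a median of 41.7 in D2. Above its D0 median were 3 of 50 D1 and 14 of 93 D2 cells. The log2 ratios of Eif3b were -1.30 and -1.52. By medians over cells they were -1.595 and -2.655, beside 0.01 and -3.00 over all genes. Eif3a, the largest subunit, had 919.9 ± 349.8 CPM in D0, 542 ± 289 in D1 and 374 ± 395 CPM in D2, with ratios of -0.76 and -1.30.

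Other subunits were higher after release. Eif3g, an RNA-binding subunit, lay between 0 and 473 CPM with a median of 185 in D0, between 11.4 and 717 CPM with a median of 386 in D1 and between 0 and 1219 CPM with a median of 453 in D2. Of its cells 46 of 50 in D1 and 74 of 93 in D2 were above the D0 median, and the log2 ratios were 1.01 and 1.16. Eif3k, a subunit of the outer ring, was highest in D1, with 286 ± 129.6 CPM in D0, 609.7 ± 256 in D1 and 380.2 ± 224 CPM in D2 and a ratio of 1.09. Eif3h and Eif3m were highest in D2, with 288 ± 121 CPM in D0, 268 ± 149.5 in D1 and 623 ± 407 CPM in D2 for Eif3h and 472 ± 178 CPM in D0, 584 ± 271 in D1 and 1014 ± 836 CPM in D2 for Eif3m. Their log2 ratios for D2 over D0 were 1.11 and 1.10, and 0.94 and 0.90 by medians. That of Eif3h for D2 over D1 was 1.22. The remaining subunits, Eif3c, Eif3d, Eif3e, Eif3f, Eif3i and Eif3l, lay inside the limit in all 3 comparisons.

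The 2 genes of the loosely bound subunit eIF3j differed, but their reads cannot be separated with certainty. Eif3j1 lay between 0 and 192 CPM with a median of 31.6 in D0, between 0 and 533 CPM with a median of 126 in D1 and between 0 and 146 CPM with a median of 11.1 in D2, with log2 ratios of 1.82 to D0 in D1 and -2.67 for D2 over D1. Eif3j2 had 18 ± 15.2 CPM in D0, 4.71 ± 5.41 in D1 and 4 ± 16.6 CPM in D2, with ratios of -1.74 and -1.93 to D0. The transcripts share 99.4% of bases over 2379 aligned bases. In the median cell, Eif3j1 took 71.8% of their joint reads in D0, 97.9% in D1 and 93.8% in D2. The sum of both was 60.4 ± 42.9 CPM in D0, 157 ± 121 in D1 and 27 ± 36.5 in D2, and its log2 ratio was 1.36 for D1 over D0 and -1.13 for D2 over D0.

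Late initiation factors differed in D2. Eif5, which encodes the GTPase-activating protein of eIF2, lay between 188 and 5198 CPM with a median of 734 in D0, between 62.8 and 2024 CPM with a median of 671 in D1 and between 0 and 2136 CPM with a median of 167 in D2. Of the D2 cells, 7 of 93 were above its D0 median, and the log2 ratio was -0.10 in D1, -1.52 in D2 and -1.42 for D2 over D1. By medians over cells the D2 over D0 ratio of Eif5 was -2.13, beside -3.00 over all genes. Eif5b, the gene of the subunit-joining GTPase, had 170.5 ± 93 CPM in D0, 224 ± 129 in D1 and 52.9 ± 80.4 CPM in D2. Its ratio was -1.67 for D2 over D0 and -2.06 for D2 over D1. Eif6 went the other way. Its product keeps free large subunits from joining too early and takes part in their assembly. The level of Eif6 lay between 0 and 370.3 CPM with a median of 108 in D0, between 5.71 and 750.3 CPM with a median of 264 in D1 and between 0 and 846 CPM with a median of 268 in D2. Above the D0 median were 45 of 50 D1 and 86 of 93 D2 cells, and the log2 ratios were 1.31 and 1.39.

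Eif5a had the largest difference in mean CPM per kilobase of exon between D0 (580.4) and D2 (1520.1) among the 66 genes. It lies at chr11:69916714-69921958 on the minus strand (GRCm38), and its product carries hypusine, a modified lysine made only on eIF5A proteins. Its cells lay between 247 and 3521 CPM with a median of 1346 in D0, between 429 and 6073 CPM with a median of 2848 in D1 and between 717 and 6405 CPM with a median of 3469 in D2. The means were 1379.7 ± 571 CPM in D0, 2856 ± 1038 in D1 and 3613 ± 1050.3 CPM in D2, with 45 of 50 D1 and 92 of 93 D2 cells above the D0 median. Of the D2 cells, 46 were above the highest D0 cell. The log2 ratio was 1.05 in D1 and 1.39 in D2. The counts were large, with 266934 reads in D0 (exact Poisson 95% interval 265922 to 267949) and 847147 in D2 (845344 to 848953), so counting error was small beside the spread between cells. Intervals cover counting error only, since reads carried no molecular identifiers. Its paralog Eif5a2 had 25.6 ± 39.7 CPM in D0, 12.5 ± 28.6 in D1 and 59.2 ± 511 CPM in D2, and 1 D2 cell had 4925 CPM. Without that cell the log2 ratio of Eif5a2 for D2 over D0 was -1.87 in place of 1.18.

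Elongation factors made up much of the summed level. Eef1a1, the gene of the main eEF1A, had 5328 ± 1903 CPM in D0, 4912 ± 2554 in D1 and 6373 ± 2239 CPM in D2 and log2 ratios of -0.12 and 0.26 to D0. No cell had a read of Eef1a2, its paralog in muscle and neurons, and 0 of 90 D0 cells allows a share of up to 3.33% (3 of 90). Of the exchange factor genes, Eef1g (gamma subunit) lay between 13 and 3005 CPM with a median of 1768 in D0, between 138 and 3413 CPM with a median of 1472 in D1 and between 1243 and 5687 CPM with a median of 2656 in D2. Of 93 D2 cells, 83 were above its D0 median, with a ratio of 0.77 in D2 and -0.15 in D1. Eef1d (delta subunit) was highest in D1, with 229.7 ± 94.7 CPM in D0, 475 ± 172 in D1 and 323 ± 199 CPM in D2, a ratio of 1.04 and 33 of 50 D1 cells above the highest D0 cell. That ratio was 0.89 in plate columns 1 to 6 and 0.66 with no filter on cells, inside the limit. Eef1b2 (beta subunit) had ratios of 0.36 and -0.21. Eef1e1, which encodes a scaffold of the tRNA synthetase complex, had 189 ± 110.2 CPM in D0, 224 ± 104 in D1 and 442 ± 359 CPM in D2 and a ratio of 1.22 in D2.

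Eef2, the translocase gene, had 1165 ± 618 CPM in D0, 609.9 ± 392 in D1 and 734 ± 837 CPM in D2, with log2 ratios of -0.93 and -0.67. Eef2k encodes the kinase that inhibits eEF2, and its D1 cells were nearly without reads. It lay between 0 and 215 CPM with a median of 17.1 in D0, between 0 and 20.1 CPM with a median of 0 in D1 and between 0 and 1507 CPM with a median of 0 in D2. A read was present in 70% of D0 cells (exact 95% interval 59.4 to 79.2%), in 20% of D1 (10.0 to 33.7%) and in 12.9% of D2 (6.85 to 21.5%), although D1 cells were the deepest. Eef2k had a log2 ratio of -3.95 for D1 over D0. In D2 it was -0.10 by means, where 1 cell held 1507 CPM and the median cell none. Among the methyltransferases of elongation factors, Eef1akmt1 lay between 0 and 135 CPM with a median of 14 in D0, between 21.8 and 703 CPM with a median of 96.5 in D1 and between 0 and 402 CPM with a median of 0 in D2. All 50 D1 cells were above its D0 median, and the log2 ratio was 2.32. In D2 44.1% of cells had a read, and the ratio of Eef1akmt1 means for D2 over D0 was 1.14 and that of medians -3.91. Eef1akmt2 was lower in D2 by means (-1.15), with -0.51 in plate columns 1 to 6 and -3.21 in columns 7 to 12, and Eef1akmt4 had 0.94. Eef2kmt, which modifies eEF2, was higher in D2 than in D1 by 1.39, or 0.88 without 1 D2 cell.

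Counted over the genes, differences past a log2 ratio of 1 in either direction were read beside the share of all genes that met the same limits. In D1 over D0, 7 of 59 (11.9%) were higher and 5 (8.47%) lower, where 13.2% and 25% of 10492 genes were. In D2 over D0, 12 of 59 (20.3%) were higher and 11 (18.6%) lower, where 9.74% and 28.1% of 8820 genes were. In D2 over D1, 4 of 57 (7.02%) were higher and 6 (10.5%) lower, where 15.0% and 19.4% of 9854 genes were. The share of higher members in D2 over D0 was thus above the background by means, and the other shares were near it or below it. With medians over cells in place of means, 4 of 59 members (6.78%) were higher and 31 (52.5%) lower in D2 over D0, beside 4.29% and 71.2% of all genes, so the shift to lower medians was general. The median log2 ratio was 0.09, 0.08 and -0.003 over the members, beside -0.20, -0.24 and -0.07 over all genes. Cytosolic ribosomal protein genes, the other large set of the translation machinery, had medians of 1.12 (87 genes), 0.42 (86) and -0.74 (87), and the difference between the sets was not tested. Higher than in D0 in both D1 and D2 were Eef1akmt1, Eif3g, Eif5a and Eif6, and lower in both were Eif3b, Eif3j2, Eif4b and Eif4g1. These comparisons share the D0 cells. In D1 over D0 Eif4b was past the limit in 8 of 17 settings (-0.75 with summed reads, -0.81 with TMM factors) and Eif4g1 in 13 of 17 (-0.97 with TMM factors, -0.88 in plate columns 1 to 6). Eif3g was past it there in 12 of 17 settings and Eif5a in 14, with 0.76 and 0.77 in plate columns 1 to 6. Eef1akmt1 in D2 over D0 was 0.29 in plate columns 7 to 12.

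**Figure D3:**
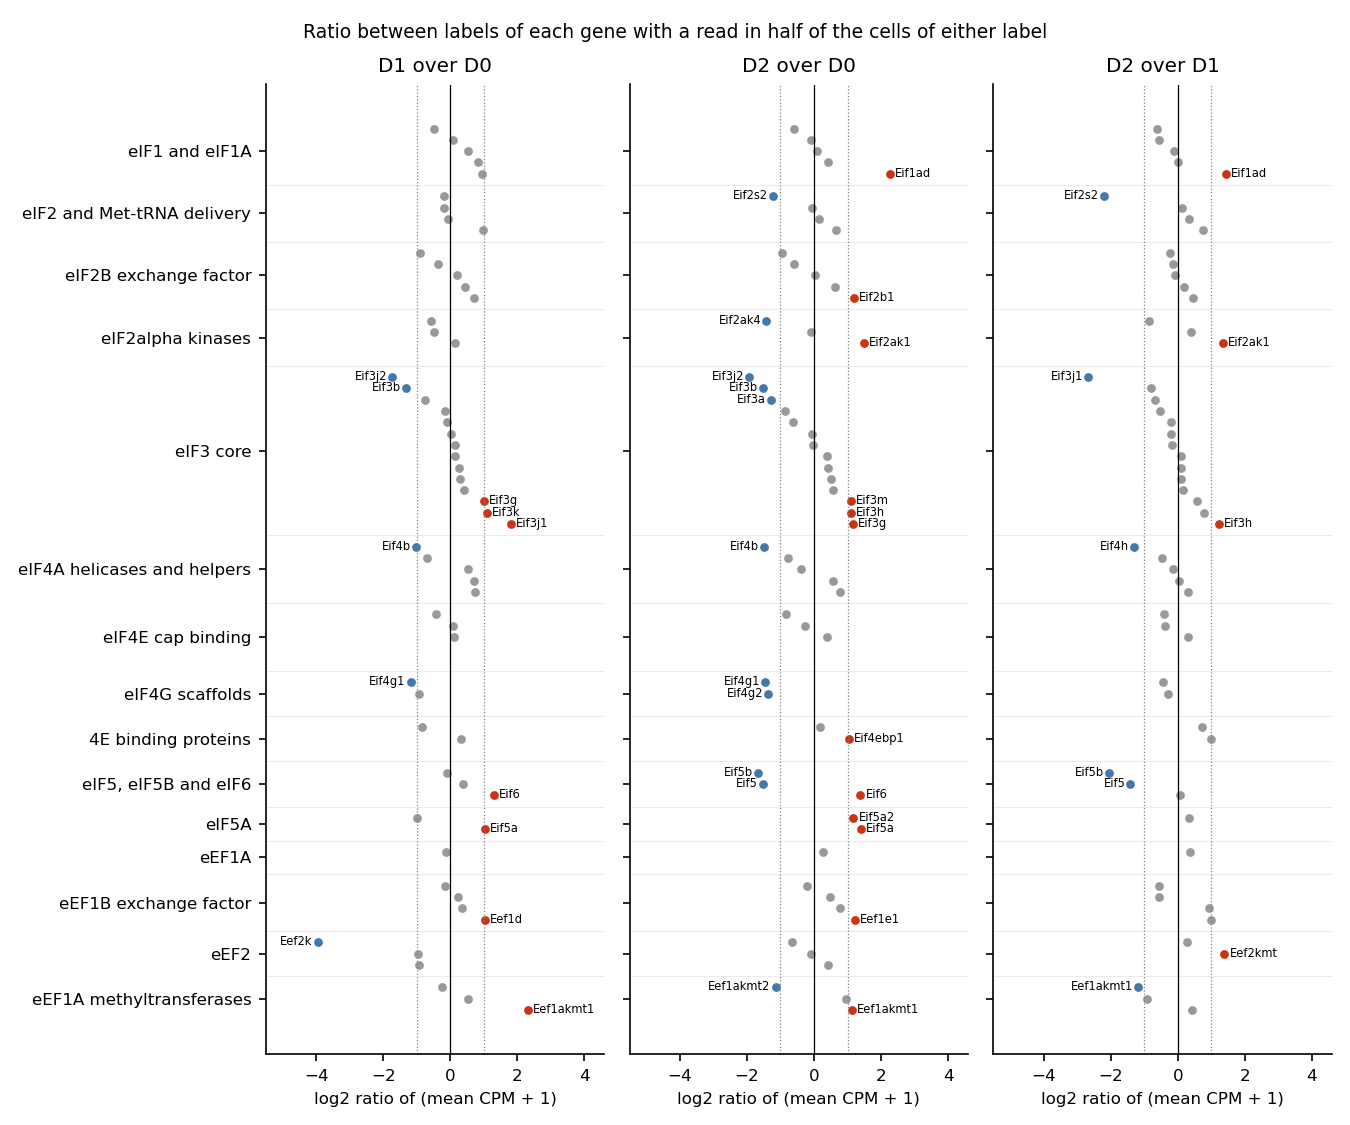
Log2 ratio of (mean CPM + 1) between labels for each translation factor gene that met the detection limit, 1 point a gene, by complex. Red and blue points with names are past 1 and -1 (dotted lines), and grey points lie between. In D2 over D0 there are 12 red and 11 blue points, in D1 over D0 7 and 5.

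Transcript length moved with these ratios and bears on the list above. Over all protein-coding genes that met the limits, cut into 10 classes by exon length, the shortest class had a median log2 ratio of 0.63 and 0.35 (D1 and D2 over D0), and the longest class -1.0 and -1.13. Spearman's rho between exon length and ratio was -0.38 and -0.35 over these genes and -0.27 and -0.42 over the 59 members, given as a description across genes. In D2 over D1 it was -0.004 over all and -0.25 over 57 members. Among the members lower in D2 were genes with long exons (Eif5b 9753 bases, Eif4g2 10166, Eif3a 8731), and among the higher ones genes with short exons (Eif5a 2377, Eif3g 1984, Eif3h 1612). Others went against this, with Eef1akmt2 (1764), Eif3j2 (2379) and Eif3b (3346) lower and Eif2ak1 (5670) and Eif5a2 (5027) higher. With the median of each length class subtracted, a step chosen after the data had been seen, 10 members were higher and 3 lower in D1 over D0, beside 15.5% and 16.7% of 8750 genes. In D2 over D0 there were 10 (16.9%) and 5, beside 15.8% and 21.1% of 7701 genes, so the higher share was then near the background, and in D2 over D1 5 and 6, beside 15.5% and 18.9% of 8178 genes. Eif5a kept 1.15, Eif6 1.28, Eif3b -1.37 and Eif4b -1.15 in D2 over D0, while Eif4g2 went to -0.48, Eif3a to -0.40, Eif4g1 to -0.93, Eif5 to -0.99, Eif5b to -0.77 and Eif2s2 to -0.70. Of the 23 members past the limit in D2 over D0, 12 were no longer past it, among them Eef1akmt1, Eif2ak4, Eif3g, Eif3h, Eif3m and Eif4ebp1, and Eif2s1 (1.14), Eif2b3 (1.15), Eef1d (1.02) and Eif2b5 (-1.07) came past it. In D1 over D0 Eif5a went to 0.85, Eif3g to 0.81, Eif4g1 to -0.55 and Eif4b to -0.77, all inside the limit, and Eif2s2, Eif1ax, Eif5b, Eif2b3 and Eif4h came past 1 at 1.61, 1.40, 1.18, 1.06 and 1.04. The part of length in the results was not tested beyond this.

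**Figure D4:**
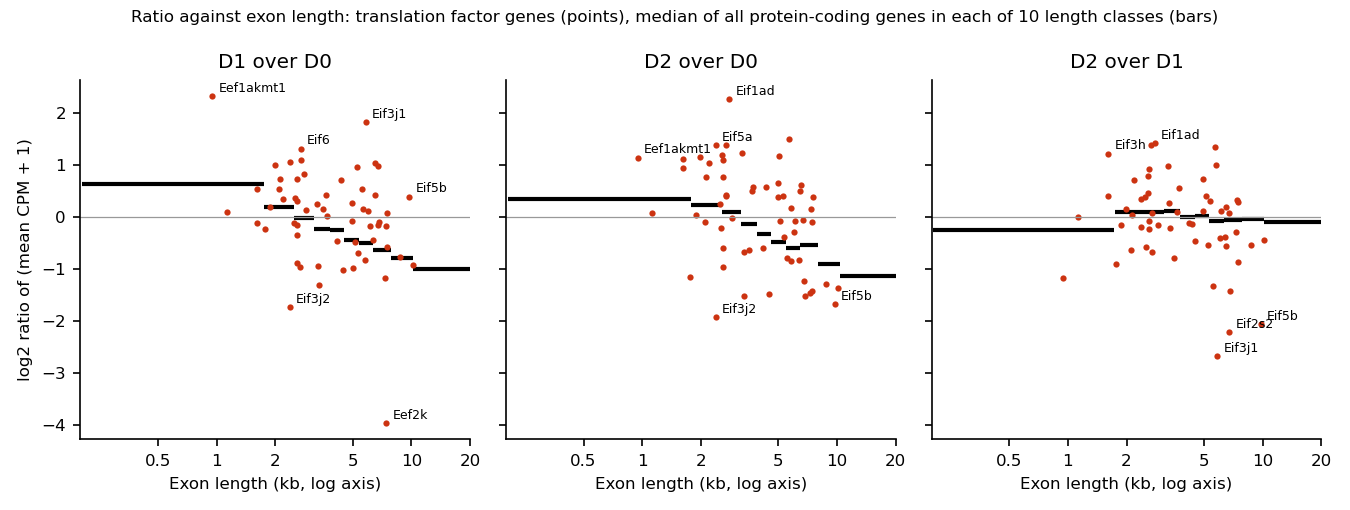
Log2 ratio of (mean CPM + 1) against exon length in kilobases (log axis) for the translation factor genes (points), with the median of all protein-coding genes in each of 10 length classes (black bars, drawn to 20 kb). The bars go from 0.63 down to -1.0 in D1 over D0 and from 0.35 to -1.13 in D2 over D0, and are nearly level in D2 over D1.

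Which paralog was used differed little between the labels, with 3 exceptions beside the eIF3j pair. Levels per kilobase of exon were compared within each family. Eif1 held 89.5% in D0, 92.1% in D1 and 88.2% in D2 of the eIF1 level, Eif4ebp1 95.9% in D0, 98.1% in D1 and 97.7% in D2 of the 4E-binding proteins, and Eif5a over 99% of eIF5A in each label. Eif4g2 held 67.3% in D0, 71.1% in D1 and 67.4% in D2 of the eIF4G level, so both scaffolds were lower together. Among the exceptions, Eif1ax took 17.8% in D0, 36.7% in D1 and 30.2% in D2 of eIF1A, with Eif1a as the other. Eif4a2 took 23.1% in D0, 10.1% in D1 and 12.8% in D2 of eIF4A, where Eif4a1 had 52.8% in D0, 61.3% in D1 and 57.2% in D2. Eif4e2 took 35.2% in D0, 34.7% in D1 and 46.4% in D2 of eIF4E, with Eif4e nearly all of the rest. With 1 culture for each label, none of these shifts could be set against a spread between cultures. The shares also depend on the length used. Eif4e2 has 7497 bases of exon but 3473 in its longest transcript, and Eif4e has 6008 and 4991. Which of these 2 held the larger share in D2 depends on that choice.

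**Figure D5:**
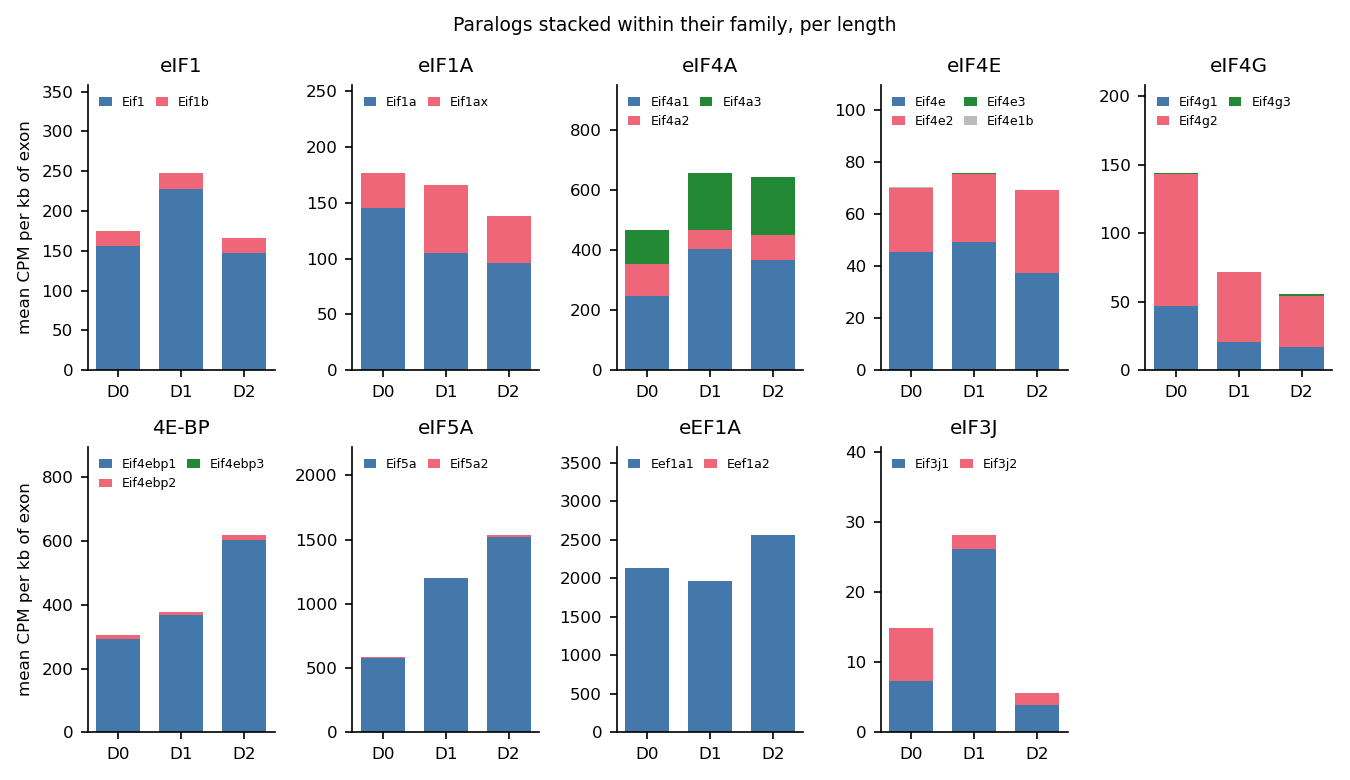
Mean CPM per kilobase of exon of the paralogs of 9 families, stacked, for D0, D1 and D2, on linear axes from 0 that differ between panels. The eIF4G bar is highest in D0 with Eif4g2 as its larger part, the eIF5A and 4E-BP bars are highest in D2, and Eef1a2 has no visible part of eEF1A.

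Many of these genes have processed pseudogenes, and reads can be split among near-identical copies. At 95% identity or more over at least 200 bases, 16 members had 40 copies with rows of their own in the table. In 6 members the copies held over 5% of the joint level in some label. Adding the copies moved no log2 ratio by more than 0.11. The closest pair shows how little there is to tell them apart. Over 1218 compared bases of the reading frame, Eif4a1 (chr11:69666936-69672423, minus strand) and the pseudogene Eif4a-ps4 (chr1:60703932-60705149, plus strand) differ by 1 base. The stretches of bases 509 to 558 around that difference are given from the GRCm38 transcripts of GENCODE M21, with the differing base in capitals.
Eif4a1: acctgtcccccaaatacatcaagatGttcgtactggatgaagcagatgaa
Eif4a-ps4: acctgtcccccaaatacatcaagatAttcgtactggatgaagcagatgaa
The difference is G534A, counted from the first base of the Eif4a1 start codon. Copies of Eif4a1 took 12.9% of the joint level in D0, 10.3% in D1 and 14.2% in D2, a like share in all 3 labels. Copies of Eef1a1 took 6.81% of the joint reads in the median D0 cell, 0.68% in D1 and 6.44% in D2. In D1 the share was 0.65% at the median of the 48 cells with an Hprt read and 7.20% at that of the 2 without. The D1 cells with a read lay between 0.40% and 2.12%, and the 2 without had 6.86% and 7.53%. In D0 cells with and without an Hprt read it was 6.55% and 6.85%, and in D2 cells 6.39% and 6.46%. Hprt had a mean of only 3.08 CPM in D0 and 2.68 in D2, against 207 in D1. The split inside D0 and D2 therefore cannot show whether the share goes with Hprt. Copies of Eef1g were 4.40% of the joint level in D0, 10.4% in D1 and 3.96% in D2, and the copy of Eif2s2 took 18%, 11.7% and 13.5%.

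The promoters were searched for the E-box CACGTG, the core site of MYC and other basic helix-loop-helix factors. RefSeq windows from 250 bases before to 50 after the start (GRCm38.p6) were found for 51 of the 66 genes. At least 1 CACGTG, which reads the same on both strands, lay in those of 13 (25.5%), beside 8.09% of all genes with a window. Among genes that met the detection limit in any label, it lay in 13 of 47 members (27.7%), beside 13% of all such genes. Genes were not matched on CpG content or number of windows, so this is a description only. The 13 were Eef1akmt4, Eef2, Eef2k, Eif1b, Eif3a, Eif3f, Eif3k, Eif4a1, Eif4e, Eif4g1, Eif4h, Eif5a and Eif5a2. The stretches around the motif are shown for 4 of them that differ in direction, 5′ to 3′ on the strand of the gene, with the motif in capitals.
Eif5a: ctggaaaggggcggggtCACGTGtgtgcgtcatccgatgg
Eif3k: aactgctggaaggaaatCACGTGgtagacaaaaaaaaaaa
Eif4g1: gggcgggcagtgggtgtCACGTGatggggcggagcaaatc
Eef2: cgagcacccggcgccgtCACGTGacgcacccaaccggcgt
The windows printed are chr11:69921438-69921477 (minus strand), chr7:28981910-28981949 (minus strand), chr16:20672656-20672695 (plus strand) and chr10:81176571-81176610 (plus strand), and the motif begins 74, 44, 54 and 43 bases before the start site. Members with the motif were past the limit in both directions, with 2 higher (Eif3k and Eif5a) and 2 lower (Eef2k and Eif4g1) of 13 in D1 over D0, where members without the motif had 2 and 2 of 34. In D2 over D0 2 were higher (Eif5a and Eif5a2) and 2 lower (Eif3a and Eif4g1), where those without had 6 and 7 of 34. Over all genes the shares were 13.2% and 25% in D1 over D0 and 9.74% and 28.1% in D2 over D0. Their median log2 ratios were 0.12 and -0.03, beside 0.12 and -0.02 for the 34 members without the motif. A motif in a window is not a site of binding, and no binding was measured.

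Across the cells of a label, the levels of these genes were weakly correlated. Over the 561 pairs of the 34 genes used, the median Spearman correlation across cells was 0.07 in D0 (90 cells), 0.07 in D1 (50) and 0.04 in D2 (93), and that over 45 pairs of eIF3 genes was -0.01, 0.17 and 0.05. Cells share a plate and the division by total reads, so these weak values are a description. The evenest genes, by the SD as a percent of the mean, were Eif4a1 in D0 (26.9%), Eef1b2 in D1 (25.6%) and Eif5a in D2 (29.1%). The most uneven of the 34 were Eif3j1 in D0 (85.7%), Eif1ad in D1 (115%) and Eif4g1 in D2 (177%). The median over the 34 genes was 51.5%, 49.7% and 85.3%, so the spread was widest in D2. Detected in 50% or more of the cells were 59 of the 66 genes in D0, 57 in D1 and 48 in D2, and with cells thinned to 200000 reads the numbers were 59, 55 and 46.

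Genes that act beside the factors were taken from 5 lists with 37 genes. Of the 37, 3 were higher and 8 lower past the limit in D1 over D0, while D2 over D0 had 1 higher and 12 lower, with medians of -0.31 and -0.60. Over all genes 13.2% and 25% were higher and lower in D1 over D0 and 9.74% and 28.1% in D2 over D0, so the lower counts were near the background. Less the length trend, 4 were higher and 4 lower in D1 over D0 (median 0.12), beside 15.5% and 16.7% of all genes, and 5 and 6 in D2 over D0 (median -0.10), beside 15.8% and 21.1%. Of 12 partners of the mRNA ends and the cap, 7 were lower in D2 over D0, beside 28.1% of all genes. Pabpc1, the poly(A)-binding protein gene, had -1.15, Pabpc4 -2.43, Paip1, the gene of a poly(A)-binding protein partner, -2.04, and Pdcd4, an inhibitor of eIF4A, -3.34. Gigyf2, which acts with 4EHP, had -1.38. Less the length trend, Gigyf2 went to -0.26, Pabpc1 to -0.62 and Mknk1 to -0.77, and Pabpc4, Paip1, Pdcd4 and Mknk2 stayed past the limit. In D1 over D0, Paip2 was higher (1.07) and Paip2b (-1.41), Larp4 (-1.01), Cyfip1 (-1.24) and Mknk1 (-2.60) lower. Less the length trend these lower ratios were -0.90 for Paip2b, -0.02 for Larp4 and -0.24 for Cyfip1, inside the limit, and -2.35 for Mknk1. In D2 over D0, the eIF4E kinase genes Mknk1 and Mknk2 had -1.10 and -3.26. Of 9 genes of scanning, joining and recycling, 3 were lower in D2 over D0 (Ddx3x -1.78, Abcf1 -1.58 and Dhx29 -1.10). The recycling ATPase gene Abce1 had -2.01 in D1 over D0, and Tpt1 1.42. Of 8 genes of mTORC1 and S6 kinase, Rheb, the activator of mTORC1, was higher in D2 over D0 (1.33) and Rptor, its scaffold, lower (-1.48). In D1 over D0 the S6 kinase gene Rps6kb1 was higher (1.21) and Tsc2, an inhibitor of Rheb, lower (-1.20). Of 6 genes of the eIF2 alpha phosphatase and its response, Ppp1r15b, a phosphatase subunit, was lower in both (-1.85 and -1.14), and Trib3 was at the limit in D1 over D0 (-1.003). Less the length trend, Rptor (-0.35), Dhx29 (-0.50) and Ppp1r15b (-0.54) in D2 over D0 and Tsc2 (-0.41) in D1 over D0 were inside the limit, and Rheb (1.86), Ddx3x (-1.30) and Abcf1 (-1.26) in D2 over D0 and Abce1 (-1.51), Tpt1 (1.22), Rps6kb1 (1.99), Trib3 (-1.20) and Ppp1r15b (-1.34) in D1 over D0 were past it. Only less the trend were Mtor (1.63), Tsc1 (2.01), Tsc2 (1.57) and Rps6kb1 (1.09) in D2 over D0 and Denr (1.49) in D1 over D0 past the limit. Each of those named for D2 had a read in under 50% of D2 cells. Both genes of the hypusine enzymes, which modify eIF5A, were inside the limit.

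The last member, Eif2c5, bears an older name of the Argonaute family and is annotated as a long intergenic RNA. It had a read in 1 D2 cell and in no cell of D0 or D1.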

How the data were processed

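The authors deposited counts of reads per gene for 288 wells, with 96 labelled D0, 96 D1 and 96 D2. The sample descriptions name a filtered, normalized table, but the deposited values are whole-number counts and failing wells are included. Per the submitters' processing notes, HISAT2 and the build GRCm38 were used. The counting tool and annotation are not given in the sources used here. Kept were cells that passed limits of 200000 reads, 2000 detected genes and 0.15 as mitochondrial fraction, and counts were scaled to CPM. A ratio is the log2 of (mean CPM + 1) over (mean CPM + 1), for genes detected in 50% or more of the cells of 1 of the 2 labels. Exon lengths came from GENCODE M21, which matched all 66 names. Named are the members by complex, the 5 largest ratios in each direction of each comparison with values, and the members under that limit. Listed partners are named where past the limit in D1 or D2 over D0, before or after the length trend was subtracted. Members and lists were chosen with earlier results of these data known. Alternatives were other filters on cells, plate sides, weights, pseudocounts, thinning, detection limits, TMM factors (edgeR 4.0.16) and median-of-ratios factors (DESeq2 1.42.0), and leaving out each cell. Subtracting the length trend was added after seeing the data. Copies were found with BLAST 2.17.0. Python 3.11.15 with pandas 2.3.3 and scipy 1.17.1 was used. The calculation of the ratios was run on counts simulated with counting error only. This cannot show how the ratios behave where few cells hold most reads.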

Additional observations from a re-analysis of the deposited data

How the results depend on the processing

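No paired analysis was possible because each label is 1 culture on 1 plate and no test was run. Of the 45 ratios past the limit of 1, 28 to 45 stayed past it under any 1 alternative. Past it under every alternative were Eef1akmt1, Eef2k, Eif3j1 and Eif6 in D1 over D0, Eif3b, Eif3j2, Eif4b, Eif5a and Eif6 in D2 over D0, and Eif2s2, Eif3j1 and Eif5b in D2 over D1. The cause of each change below was not tested. With the median over cells, 5 ratios changed sign, namely Eef1akmt1 (-3.909), Eif2ak1 (-5.287) and Eif5a2 (-2.092) in D2 over D0 and Eef2kmt (-3.728) and Eif2ak1 (-5.641) in D2 over D1. Eif5a2 in D2 over D0 was also -1.175 in plate columns 7 to 12 and -1.866 to 1.269 when each cell was left out, the first without 1 D2 cell. Leaving out 1 cell took Eif3g (to 0.984) and Eif4b (-0.993) in D1 over D0, Eef1akmt2 (-0.9999) in D2 over D0 and Eef2kmt (0.883) in D2 over D1 inside the limit. TMM factors moved the median of all genes by 0.21, 0.19 and -0.01 in the 3 comparisons, and median-of-ratios factors by 0.10, 0.23 and 0.12.

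Counts that moved by over 1.5 times were as follows. Lower members in D1 over D0 (5) became 11 without a filter on cells, 9 in plate columns 1 to 6, 10 with medians, and 3 with summed reads, a pseudocount of 10 CPM, TMM factors or the length trend subtracted. Higher members in D2 over D0 (12) became 4 with medians, and lower ones (11) 31 with medians and 5 less the length trend. Higher members in D2 over D1 (4) became 8 without a filter on cells and in columns 1 to 6, 1 with medians, and 7 with median-of-ratios factors or no detection limit. Lower ones (6) became 10 in columns 7 to 12 and 24 with medians. Over all genes under the same settings, the lower share in D1 over D0 was 39% without a filter on cells, 23.1% in columns 1 to 6, 26.2% with medians, 23.1% with summed reads, 16.7% with the larger pseudocount and 20.2% with TMM factors. With medians, 4.29% were higher and 71.2% lower in D2 over D0 and 2.88% and 67.1% in D2 over D1. The higher share in D2 over D1 was 22.5% without a filter on cells, 14.8% in columns 1 to 6, 17.5% with median-of-ratios factors and 11.2% with no detection limit, and the lower share 21.4% in columns 7 to 12. These shares were computed after the data had been seen.

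The log2 ratios of summed levels, given here for D1 over D0, D2 over D0 and D2 over D1, were 0.1163, 0.2537 and 0.1374. With the stricter filter they were 0.1041, 0.2572 and 0.1531, without cells against their label in Hprt 0.1009, 0.2421 and 0.1413, in columns 1 to 6 0.06059, 0.257 and 0.1964, and in columns 7 to 12 0.1668, 0.2487 and 0.08192. Summed reads gave 0.2244, 0.3237 and 0.09931, medians 0.1395, 0.266 and 0.1265, TMM factors 0.3249, 0.4482 and 0.1233, median-of-ratios factors 0.2191, 0.4792 and 0.2601, and totals without the most abundant genes 0.171, 0.2781 and 0.1071. With no filter on cells the first was -0.007126 and the last 0.2599. Leaving out each cell gave 0.1042 to 0.1317, 0.2458 to 0.261 and 0.1221 to 0.1495.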
